A study of Mus musculus with 3 samples.

Results

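Splicing factors and RNA helicases are the genes whose symbols begin with Srsf, Sf3a, Sf3b, Hnrnp, Snrp, Snrnp, Lsm, Prpf, U2af, Ddx, Dhx or Rbm in the annotation of the array. The rule reads the symbol of probes with a single gene symbol and uses no measured value. The annotation lists 107 such genes with 193 probes, and 78 of them, with 127 probes, had a value other than 0 on all 3 arrays, out of 6077 genes measured that way in the whole series. The study is 1 group of 3 two-colour arrays, in which commercial total RNA of mouse spleen carried Cy5 (red) and a commercial universal reference, known as a mix of RNAs from cultured mouse cells, Cy3 (green). The labels give no strain, age, sex, treatment or number of animals for the spleen RNA. Both RNAs came from the same catalogue items on every array, so a p-value here reflects how far 3 arrays differ from each other, which may be technical spread.

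The spliceosome cuts introns out of new transcripts. Its building blocks are small nuclear ribonucleoproteins (snRNPs), each a small RNA held in a ring of Sm or LSM proteins with particle-specific partners, while SR proteins and hnRNP proteins bind exons and introns and steer the choice of splice sites. DEAD-box and DEAH-box helicases use ATP to remodel RNA at each step of splicing, and related helicases serve ribosome assembly, mRNA export, translation and antiviral sensing.

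Each value is a signed log ratio as the authors deposited it, with neither its log base nor its numerator given. A positive ratio probably means a higher level in spleen. This reading rests on the dyes in the labels and the signs of marker genes: the 2 measured B cell markers were 3.53 and 3.91, the 2 globins 2.64 and 3.22 and the spleen macrophage marker Slc40a1 4.24, 3 of 4 T cell markers were called positive, up to 3.88, and all 3 fibroblast markers were negative, from -3.24 to -2.20. The fourth T cell marker, Cd3d, went against this reading and was called negative at -0.85. The sample titles name the reference first, which could mean the opposite order, and no dye swap is labelled, so dye and RNA source cannot be told apart. The 2 measured pancreas acinar markers, 3.18 and 4.66, were positive as well, and the part of such cells in the ratios below was not tested. In bulk RNA, fewer cells of a type and less RNA per cell cannot be told apart.

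Most splicing factors and RNA helicases had small ratios of spleen to the reference, in both directions. With limma's test against 0 and an adjusted p under 0.05 over all genes, 26 of the 78 measured members were called positive (33.3%) and 24 negative (30.8%), beside 33.2% positive and 37.1% negative among all 6077 genes. These shares are close to the background and say nothing particular about the set. The median absolute ratio was 0.30 for members and 0.36 for all genes, and 3 members (3.85%) reached an absolute ratio of 1 beside 14.2% of all genes. Those 3 were Rbm12b1 at 1.06, the helicase Dhx34 at 1.02 and the U2 subunit Sf3b5 at -1.27. In base 2 these would be 2.08-fold, 2.02-fold and 2.42-fold, and in natural logs 2.89-fold, 2.77-fold and 3.57-fold. The called members nearest to 0 were Hnrnpab (-0.19) and Lsm7 (-0.20), and the uncalled ones farthest from it Snrpb2 (-0.26) and Dhx38 (0.24). Across the 78 members Pearson's r was 0.862 between arrays 1 and 2, 0.914 between arrays 1 and 3 and 0.840 between arrays 2 and 3. Over all 6077 genes the values were higher, 0.962, 0.972 and 0.957 in the same order. Array 2 lay farthest from the mean of the 3 arrays for 38 members, and arrays 1 and 3 for 20 each. The farthest array was not counted over all genes.

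**Figure D1:**
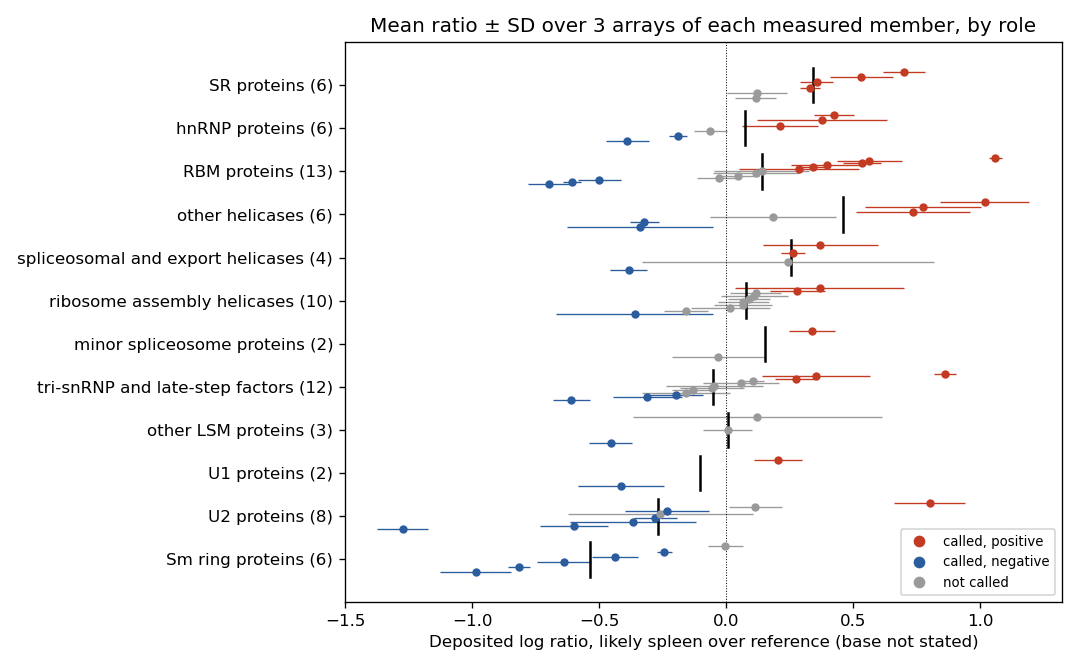
Mean log ratio of each of the 78 measured members (points, with SD over 3 arrays as bars) by role, with the number measured in parentheses and the median of each role as a black line; red and blue points passed the gene test. The 6 SR protein genes all lie above 0, with a median of 0.34, and the Sm ring genes lie at or below it, with a median of -0.54.

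SR protein genes were on the positive side. SR proteins carry stretches rich in arginine and serine and mark exons for the spliceosome. Of 9 listed genes 6 were measured on all arrays. Of these, 4 were called positive (66.7%) and 0 negative, beside 33.2% and 37.1% of all genes. The median ratio was 0.34 beside -0.033 over all genes. For Srsf5 the ratios were 0.61, 0.75 and 0.75 on arrays 1 to 3. All 3 values were clear of 0, and the mean was 0.70 ± 0.082 (SD, n = 3; limma adjusted p = 6.97e-05), which is 1.63-fold in base 2 and 2.02-fold in natural logs. Srsf11 had 0.56, 0.40 and 0.64, a mean of 0.53 ± 0.12 (SD, n = 3; limma adjusted p = 0.000457). Srsf3, the smallest SR protein, had 0.32, 0.32 and 0.43, a mean of 0.36 ± 0.065 (SD, n = 3; limma adjusted p = 0.00194). Array 3 was highest for both of these genes. Srsf4 had 0.28, 0.36 and 0.35, a mean of 0.33 ± 0.039 (SD, n = 3; limma adjusted p = 0.00248). The 7 measured probes of these 4 genes gave 21 values, all positive, from 0.024 to 0.88. Since the genes were picked by their positive calls, the shared sign is no separate support. Srsf2 (0.22, 0.15 and -0.0075) and Srsf10 (0.21, 0.062 and 0.077) had lower means, of 0.12 each, and did not pass (limma adjusted p = 0.163 and 0.154). The other three were measured on 2 arrays at most, Srsf1 at 0.62 and 0.48 on arrays 1 and 3 and Srsf6 at 0.53 and 0.86 on the same arrays (0.61 by another probe on array 1), both positive, and Srsf9 at -0.11 and -0.096 on arrays 1 and 2. All 4 calls were kept without each array in turn. None of the 4 passed limma's test against a 1.5-fold change read in base 2, and subtracting a running median over neighbouring probe numbers, which removes any trend along the numbering, moved the mean of Srsf5 to 0.28 and that of Srsf3 to 0.20 (5 numbers on either side) and that of Srsf11 to 0.28 (20 numbers). Srsf11 stood at 0.27 with 0 kept and Srsf3 at 0.55 by its least variable probe. The other Srsf3 probe measured on all arrays had a mean of 0.17 and was not called (limma adjusted p = 0.145).

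Sm ring genes were on the negative side. The Sm proteins form the ring that closes around the RNA of U1, U2, U4 and U5 snRNPs. Of 7 listed genes 6 were measured, and 5 were called negative (83.3%), 0 positive, beside 37.1% and 33.2% of all genes. The median was -0.54. This role was assigned by hand with earlier results of these data known, so its share is no separate support. By symbol alone, of 14 measured Snrp and Snrnp genes 8 were called negative (57.1%) and 2 positive (14.3%), with a median of -0.34. Snrpd3, the SmD3 gene, had ratios of -1.12, -1.0 and -0.84, a mean of -0.99 ± 0.14 (SD, n = 3; limma adjusted p = 2.35e-05). That is 1.98-fold lower in base 2 and 2.68-fold lower in natural logs, and each of its 3 probes was negative on every array. Snrpf, the SmF gene, had -0.86, -0.78 and -0.81, a mean of -0.82 ± 0.044 (SD, n = 3; limma adjusted p = 2.45e-05). Snrpd1, the SmD1 gene, had -0.60, -0.76 and -0.55, a mean of -0.64 ± 0.11 (SD, n = 3; limma adjusted p = 0.000147). Both genes were negative on every array with little spread. Snrpd2 had -0.50, -0.48 and -0.33, a mean of -0.44 ± 0.091 (SD, n = 3; limma adjusted p = 0.000858). Snrpg was nearer to 0, with -0.27, -0.25 and -0.21 over 4 probes, a mean of -0.24 ± 0.030 (SD, n = 3; limma adjusted p = 0.00958). The 12 probes of these 5 genes gave 36 values, all negative, from -1.15 to -0.077. Here too the genes were picked by their calls, which largely sets the shared sign. Snrpn, the imprinted Sm gene known for its expression in brain, stood apart at -0.057, -0.029 and 0.073 and was not called (limma adjusted p = 0.957), though subtracting the running median over 5 probe numbers put it at 0.29. The single Snrpe probe held 0 on all arrays. The call of Snrpg ended without array 1 (-0.23, limma adjusted p = 0.0610). Of the 5 calls, 2 (Snrpd3 and Snrpf) passed the test against a 1.5-fold change, and the means of Snrpd1 (-0.38 with 0 kept as a value), Snrpd2 (-0.22 with a running median over 5 numbers) and Snrpg (-0.16 over 20 numbers) moved by over 1.5 times.

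**Figure D2:**
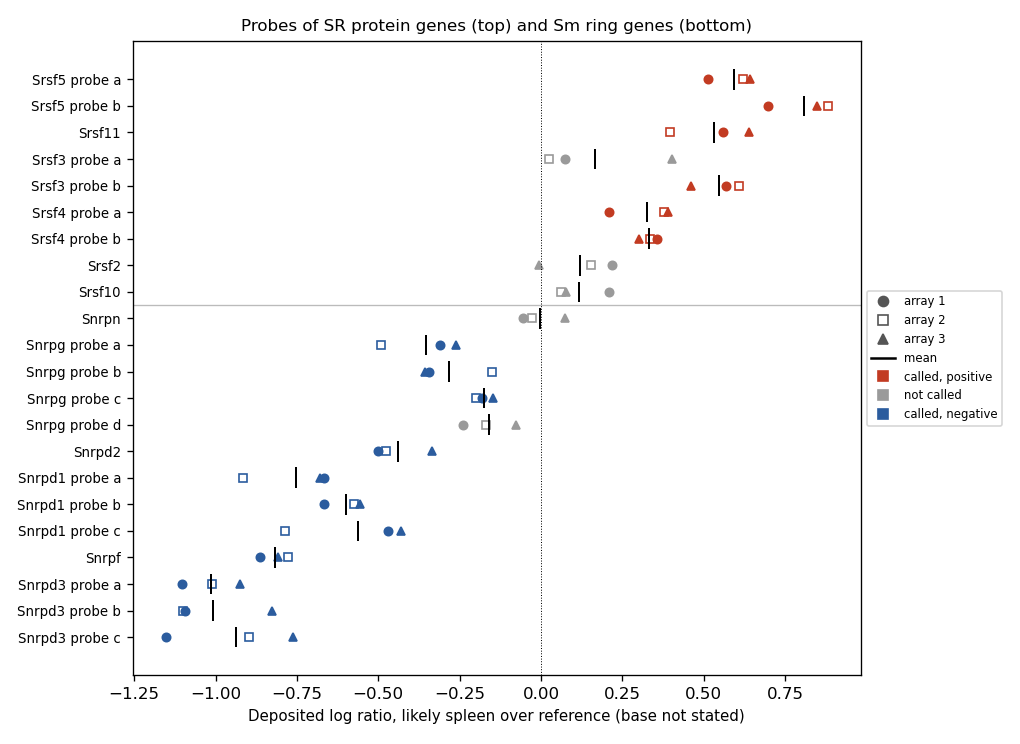
Log ratio on each array (symbols) and mean (black line) of every measured probe of the SR protein genes, above the grey line, and of the Sm ring genes, below it; probes of a gene are lettered by rising mean, and red or blue marks a probe that passed the probe test. All values of Srsf3, Srsf4, Srsf5 and Srsf11 are above 0 and all values of Snrpd1, Snrpd2, Snrpd3, Snrpf and Snrpg below it. These are the called genes of each group, so their shared signs are no separate support.

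Because these gene groups lay on opposite sides of 0, their promoters were read from the RefSeq table of build GRCm38.p6, in which 68 of the 78 measured members have 83 windows of 300 bases (250 before and 50 after the start). Motifs were searched on both strands: ETS (CCGGAAGT), NRF1 (GCGCATGC), YY1 (AAGATGGC), the TATA box (TATAAA), the E-box (CACGTG) and the cAMP response element (TGACGTCA). The ETS letters were in 15 of the 83 windows of members (18.1%) and in 3.89% of all 32851 windows, and the median GC content was 60.0% for members and 52.7% for all. Of the windows of measured SR protein genes 4 of 9 held the ETS letters, and of those of Sm ring genes 0 of 8, with median GC contents of 69.3% and 51.0%. The 9 windows came from 6 genes and the 8 from 5, so a gene with several windows counts more than once. NRF1 was in 8.43% of member windows and 2.71% of all, YY1 in 7.23% and 2.75%, the TATA box in 9.64% and 13.6%, the E-box in 7.23% and 7.15%, and the cAMP response element in 3.61% and 1.79%. Windows of a gene can overlap, and no test was made of these counts. The 32851 windows belong to 27025 genes, many of them not measured on these arrays. Windows of all measured genes were not counted apart, so the differences are not read as a trait of members. Among called members the ETS letters were in 8 of 29 windows of positive genes and 6 of 26 windows of negative genes, so both directions held them. A match describes the letters and not a bound site. The 200 bases before the start are shown for the SR gene and the Sm gene with the largest ratios and for 1 more gene of each group that holds a motif, with motif letters in capitals: 2 ETS matches in Srsf5, an ETS match and overlapping NRF1 matches in a start of Srsf11, none in Snrpd3 and a cAMP response element in Snrpg.
Srsf5, chr12:80945299-80945498, plus strand: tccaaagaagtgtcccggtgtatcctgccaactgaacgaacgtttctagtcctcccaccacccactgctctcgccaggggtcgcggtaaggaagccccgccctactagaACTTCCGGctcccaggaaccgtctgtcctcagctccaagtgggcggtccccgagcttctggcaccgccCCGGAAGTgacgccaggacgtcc
Srsf11, chr3:158031749-158031948, minus strand: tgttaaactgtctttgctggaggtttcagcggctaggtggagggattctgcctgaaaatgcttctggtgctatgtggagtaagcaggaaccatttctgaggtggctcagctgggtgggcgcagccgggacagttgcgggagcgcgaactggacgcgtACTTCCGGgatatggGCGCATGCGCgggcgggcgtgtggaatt
Snrpd3, chr10:75517842-75518041, plus strand: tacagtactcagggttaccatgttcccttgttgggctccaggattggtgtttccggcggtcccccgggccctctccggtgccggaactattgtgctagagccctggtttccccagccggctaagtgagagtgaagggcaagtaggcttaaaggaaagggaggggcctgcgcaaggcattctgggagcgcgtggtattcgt
Snrpg, chr6:86371340-86371539, plus strand: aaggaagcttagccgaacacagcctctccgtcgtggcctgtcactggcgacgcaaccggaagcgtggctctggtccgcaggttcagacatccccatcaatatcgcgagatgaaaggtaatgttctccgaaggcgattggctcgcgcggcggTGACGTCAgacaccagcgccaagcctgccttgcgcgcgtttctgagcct

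The proteins of the U2 particle, which recognises the branch point, and U2af1, counted with them here, were mostly negative, with 1 large exception. Of 8 measured genes 5 were called negative (62.5%) and 1 positive (12.5%), beside 37.1% and 33.2% of all genes. The median was -0.27. Sf3b5, a small subunit of the SF3b complex, had the lowest mean of the members measured on all arrays, with -1.27, -1.38 and -1.18, a mean of -1.27 ± 0.10 (SD, n = 3; limma adjusted p = 4.2e-06). Sf3b3, another SF3b subunit, went the other way with 0.88, 0.64 and 0.89, a mean of 0.80 ± 0.14 (SD, n = 3; limma adjusted p = 6.74e-05). These subunits of a single complex had opposite signs on every array, and each rests on 1 probe. Snrpa1, the U2 A′ protein, had -0.49, -0.75 and -0.56, a mean of -0.60 ± 0.13 (SD, n = 3; limma adjusted p = 0.000281). U2af1, the small subunit of the factor that reads the 3′ splice site, had -0.46, -0.085 and -0.55, and a mean of -0.37 ± 0.25 (SD, n = 3; limma adjusted p = 0.0123). On array 2, 1 of its 3 probes was positive (0.37) and the others were at -0.37 and -0.26, close to their values on the other arrays. Sf3a1 (-0.33, -0.18 and -0.32) and Sf3b2 (-0.16, -0.42 and -0.12) were also called negative (limma adjusted p = 0.00725 and 0.0322). Sf3b6 (0.11) and Snrpb2 (-0.26) were not called, and the arrays of Snrpb2 ranged from -0.65 to 0.066. Its 2 probes measured on all arrays differed, at -1.32 and 0.020 on array 2. The first had a mean of -0.67 and was called negative (limma adjusted p = 0.0267). The second had a mean of 0.15 and was not called (limma adjusted p = 0.116). Without array 1 the calls of U2af1 (-0.32, limma adjusted p = 0.0749), Sf3a1 (-0.25, 0.0537) and Sf3b2 (-0.27, 0.0677) ended, and that of Sf3b2 also ended without array 2 (-0.14, 0.121) and with each array centred on its median (-0.21, 0.0510). The calls of U2af1 (-0.14) and Sf3a1 (-0.053) ended with a running median over 5 probe numbers subtracted, which moved Sf3b3 to 0.19. Over 20 numbers the call of U2af1 ended too (-0.16, 0.0710), and Sf3b3 stood at 0.35 and Sf3a1 at -0.42. Those of U2af1 and Sf3b2 ended with 0 kept as a value.

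Proteins of the U1 particle, of the U4/U6.U5 tri-snRNP and of the late splicing steps were mixed. Prpf18, a factor of the second splicing step, was the highest of them with 0.83, 0.91 and 0.85, a mean of 0.86 ± 0.043 (SD, n = 3; limma adjusted p = 1.88e-05), and its 2 probes were alike. Snrnp27, a tri-snRNP protein, was the lowest with -0.61, -0.54 and -0.68, a mean of -0.61 ± 0.074 (SD, n = 3; limma adjusted p = 0.000133), over 3 probes that were all negative. Of the 12 measured genes of the tri-snRNP and late steps 3 were called positive (25%) and 3 negative (25%). The shares over all genes were 33.2% and 37.1%, and the median of these 12 genes was -0.051. Prpf4b, a kinase of splicing proteins, had 0.32, 0.32 and 0.18, and the helicase Ddx23, which helps to release U1 from the 5′ splice site, had 0.60, 0.21 and 0.25. Of the LSM proteins that ring U6, Lsm5 (-0.45, -0.17 and -0.31) and Lsm7 (-0.18, -0.31 and -0.10) were called negative, and Lsm3 (-0.16), Lsm6 (0.058) and Lsm8 (-0.056) were not called, like the particle proteins Prpf4 (-0.13) and Snrnp40 (-0.047). Lsm11, which belongs to the U7 particle of histone mRNA processing, had -0.39, -0.55 and -0.42, a mean of -0.45 ± 0.084 (SD, n = 3; limma adjusted p = 0.000669). Lsm1, of the cytoplasmic decay ring, was near 0 (0.0058), and Lsm14a was spread from -0.41 to 0.54. Snrnp48, of the minor spliceosome, was positive with 0.27, 0.44 and 0.30 (limma adjusted p = 0.00307), and Snrnp25 was not called (-0.034). Of the U1 proteins Snrpa had -0.38, -0.60 and -0.27, a mean of -0.41 ± 0.17 (SD, n = 3; limma adjusted p = 0.0028), but 0.0092 with a running median over 5 probe numbers subtracted. Without array 1 the calls of Ddx23 (0.23, limma adjusted p = 0.0626), Prpf4b (0.25, 0.0571), Lsm5 (-0.24, 0.0619) and Lsm7 (-0.21, 0.111) ended. That of Lsm7 also ended without array 2 (-0.14, 0.126), without array 3 (-0.24, 0.0578) and with arrays centred (-0.17, 0.0621), the calls of Ddx23, Prpf4b, Lsm5, Lsm7 and Snrpa ended with 0 kept, and those of Lsm5 (-0.085) and Lsm7 (-0.014) with the running median over 5 probe numbers, which moved Ddx23 to 0.71. Over 20 numbers Ddx23 stood at 0.67, Lsm5 at -0.17 and Snrpa at -0.23.

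The hnRNP genes, which coat introns and often oppose SR proteins at splice sites, were small in both directions. Of 6 measured genes 3 were called positive (50%) and 2 negative (33.3%), beside 33.2% and 37.1% of all genes. Their median was 0.074, with a range from -0.39 to 0.42. Hnrnpa3 had 0.42, 0.50 and 0.34, a mean of 0.42 ± 0.080 (SD, n = 3; limma adjusted p = 0.000917). Hnrnpl, a binder of CA repeats, had -0.38, -0.31 and -0.48, a mean of -0.39 ± 0.084 (SD, n = 3; limma adjusted p = 0.00146). Both were of 1 sign on every array. Hnrnpr had 0.21, 0.67 and 0.25, with array 2 highest, and a mean of 0.38 ± 0.26 (SD, n = 3; limma adjusted p = 0.0116), or 0.23 without array 2. Hnrnpdl (0.038, 0.30 and 0.29) was called positive and Hnrnpab (-0.17, -0.23 and -0.17) negative, at limma adjusted p = 0.0415 and 0.0268. The call of Hnrnpab ended without array 1 (-0.20, 0.0935), array 2 (-0.17, 0.0672) or array 3 (-0.20, 0.120), and that of Hnrnpdl without array 2 (0.16, 0.134) or array 3 (0.17, 0.196). With 0 kept as a value the 3 positive calls ended, at limma adjusted p of 0.0793 for Hnrnpa3, 0.144 for Hnrnpr and 0.164 for Hnrnpdl. The median of probes ended the calls of Hnrnpab (-0.12, 0.208) and Hnrnpdl (0.19, 0.0890), and the running median over 20 probe numbers moved Hnrnpa3 to 0.25 and Hnrnpr to 0.57.

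RBM proteins share an RNA recognition motif and little else, and their genes went both ways. Of 13 measured genes 6 were called positive (46.2%) and 3 negative (23.1%), beside 33.2% and 37.1% of all genes. The median was 0.14. Rbm12b1 had the highest mean of the members measured on all arrays with 1.08, 1.06 and 1.03, a mean of 1.06 ± 0.025 (SD, n = 3; limma adjusted p = 6.19e-06), over 1 probe. Rbm28, whose protein is known from ribosome assembly, was the lowest with -0.72, -0.76 and -0.61, a mean of -0.70 ± 0.081 (SD, n = 3; limma adjusted p = 6.99e-05). Rbm8a, the Y14 subunit of the exon junction complex, had -0.61, -0.64 and -0.57, a mean of -0.61 ± 0.035 (SD, n = 3; limma adjusted p = 0.000105). These genes had little spread between arrays, though the running median over 5 probe numbers moved Rbm28 to -0.22 (-0.44 over 20) and Rbm8a to -0.40. An Rbm8a probe with a mean of -0.14 was not called (limma adjusted p = 0.181). Rbm39, a relative of the large U2AF subunit, had 0.42, 0.67 and 0.60, a mean of 0.56 ± 0.13 (SD, n = 3; limma adjusted p = 0.000358). Rbm7, of the nuclear exosome targeting complex, had 0.54, 0.61 and 0.46, a mean of 0.53, and 0.92 by its least variable probe. Another Rbm7 probe, with a mean of 0.052, was not called (limma adjusted p = 0.697). The other called genes were Rbm6 (0.40), Rbm15b (0.34), an adaptor of RNA methylation, Rbm25 (0.29) and, on the negative side, Rbm18 (-0.50). Rbm25 had 0.37, 0.47 and 0.018, with array 3 near 0, and its call ended without array 1 (0.24, limma adjusted p = 0.143), without array 2 (0.19, 0.124) and with 0 kept (0.202), while the running medians over 5 and 20 probe numbers moved it to 0.57 and 0.59. Rbm33 (0.14), Rbm34 (0.12) and Rbm42 (-0.030) were not called, the last of them at 0.17 by its least variable probe.

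Among the helicases measured on all arrays, 3 genes with roles outside the spliceosome stood highest. Ddx5, grouped here with the splicing and export helicases, was outside this ranking. Its probe measured on arrays 1 and 3 had a higher mean, 1.10, and is given below. Of 10 helicases of ribosome assembly 7 were not called, beside 1807 of all 6077 genes. Of 21 measured DEAD-box and DEAH-box genes 8 were called positive (38.1%) and 4 negative (19%), beside 33.2% and 37.1% of all genes. The median was 0.12. Dhx34, known from nonsense-mediated decay, had 0.88, 0.96 and 1.22, a mean of 1.02 ± 0.18 (SD, n = 3; limma adjusted p = 3.15e-05). Dhx30, a helicase of mitochondrial ribosome assembly, had 0.73, 1.02 and 0.57, a mean of 0.77 ± 0.23 (SD, n = 3; limma adjusted p = 0.000253). Ddx3x, an X-linked translation helicase, had 0.99, 0.65 and 0.57, a mean of 0.74 ± 0.23 (SD, n = 3; limma adjusted p = 0.000315). All 9 values were above 0.5, and 1 probe stands for each gene. The other Ddx3x probes were outside the test, 1 at 0 on all arrays and 1 with 0.85 on array 3 alone, and with 0 kept the call of Ddx3x ended (0.34, limma adjusted p = 0.0529). Without moderation of the variance the calls of Dhx30 and Ddx3x ended (limma adjusted p = 0.0570 and 0.0596).

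Of the splicing and export helicases, Dhx16, the mouse counterpart of yeast Prp2, had 0.51, 0.11 and 0.50 and a mean of 0.37 (limma adjusted p = 0.00926), and Ddx39a, a paralogue of the export helicase UAP56, had 0.23, 0.24 and 0.32 and a mean of 0.26 (limma adjusted p = 0.00739). Ddx19b, which releases mRNA at the nuclear pore, had -0.46, -0.31 and -0.38, a mean of -0.38 ± 0.073 (SD, n = 3; limma adjusted p = 0.00144). Dhx38, the counterpart of yeast Prp16, was not called and had arrays of both signs (0.42, 0.71 and -0.40). The 10 ribosome assembly helicases had a median of 0.079. Ddx24 (0.68, 0.015 and 0.41) and Ddx54 (0.18, 0.26 and 0.40) were called positive and Ddx56 (-0.44, -0.023 and -0.62) negative. Array 2 was close to 0 for Ddx56, which rests on 1 probe, whereas for Ddx24 it averaged probes at -0.32 and 0.35. Ddx18 was not called (0.017), though it was called at -0.17 with a running median over 20 probe numbers subtracted. The other uncalled ribosome assembly helicases had means from -0.16 (Ddx10) to 0.12, and Dhx40 stood at 0.19. Dhx9, the RNA helicase A, had -0.31, -0.64 and -0.064 (limma adjusted p = 0.0253), and Ddx59 had -0.34, -0.37 and -0.26 (limma adjusted p = 0.00298). Without array 1 the helicase calls numbered 5 positive and 2 negative, the calls of Ddx23, Ddx24 (0.21, 0.166), Dhx16 (0.30, 0.0662), Ddx56 (-0.32, 0.109) and Dhx9 (-0.35, 0.0805) having ended. Over all genes 1715 positive and 1945 negative calls were left without array 1, beside 2017 and 2253 with all arrays. The call of Dhx9 ended without array 2 (-0.19, 0.0910), and those of Ddx39a (0.24, 0.0678), Ddx54 (0.22, 0.0858) and Ddx56 (-0.23, 0.0762) ended without array 3. The running median over 20 probe numbers ended the call of Dhx16 (0.15, 0.0878) and that over 5 the call of Ddx24 (0.27, 0.326), the latter setting also moving Dhx16 to 0.20, Ddx19b to -0.17, Ddx56 to -0.24 and Dhx9 to 0.094. With 0 kept, 3 positive and 2 negative calls were left, with Ddx39a at 0.17 and Ddx59 at -0.16, and with an unmoderated variance 2 and 2.

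**Figure D3:**
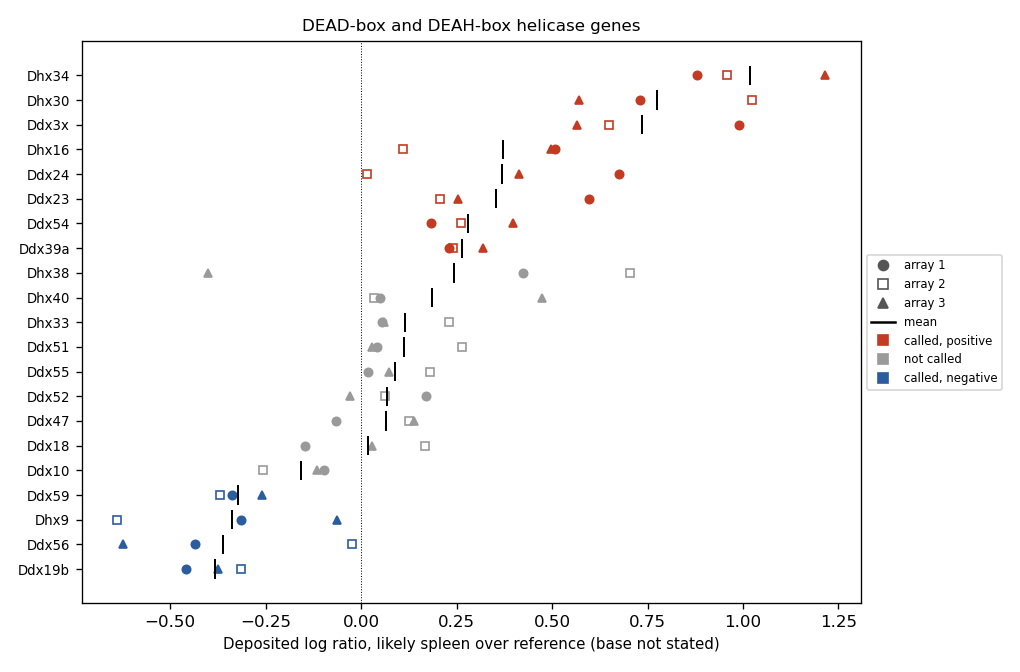
Log ratio on each array (symbols) and mean (black line) of the 21 measured DEAD-box and DEAH-box helicase genes, in order of the mean; red and blue genes passed the gene test. Dhx34, Dhx30 and Ddx3x lie above 0.5 on every array, and genes such as Ddx24, Ddx56 and Dhx38 have 1 array far from the others.

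Different probes of a gene did not always give the same direction. Among all 11086 probes measured on every array 68.3% were called, and of the 127 probes of members 82 (64.6%) were. Of 28 members with more than 1 measured probe, 4 (14.3%) had probes called in opposite directions. The share over all genes with several probes was not computed, so this count is not read as a trait of members. For Snrnp70, the U1 70K gene, a probe at 0.49, 0.68 and 0.77 (mean 0.65) stood against a probe at -0.29, -0.23 and -0.20 (mean -0.24). The gene mean of 0.20 was called positive (limma adjusted p = 0.029), and the call ended without array 2 (0.19, 0.0675), without array 3 (0.16, 0.215) and with 0 kept (0.14, 0.0765), while the running median over 5 probe numbers put it at 0.33. Prpf31, a tri-snRNP protein, had probes with means of 0.53 and -0.32, each of 1 sign on all arrays, and a gene mean of 0.10 that was not called. Rbm4b had probes with means of 0.50, 0.028 and -0.39. For Hnrnpc, an intron-binding hnRNP protein with 6 measured probes, 2 probes from different clones had means of 0.64 and 0.28, whereas 4 probes made from 1 expressed sequence tag had means from -0.48 to -0.098. All means from that tag were negative, but those of -0.23 and -0.098 were not called (limma adjusted p = 0.0791 and 0.32). Gene means near 0, as for Hnrnpc (-0.062) and Rbm4b (0.048), hold probes that differ. Which transcripts these probes bind was not tested, since no probe sequences were used here. By the least variable probe, Ddx39a would stand at -0.039, Hnrnpab at 0.10 and Lsm7 at 0.059, the reverse of their gene means.

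**Figure D4:**
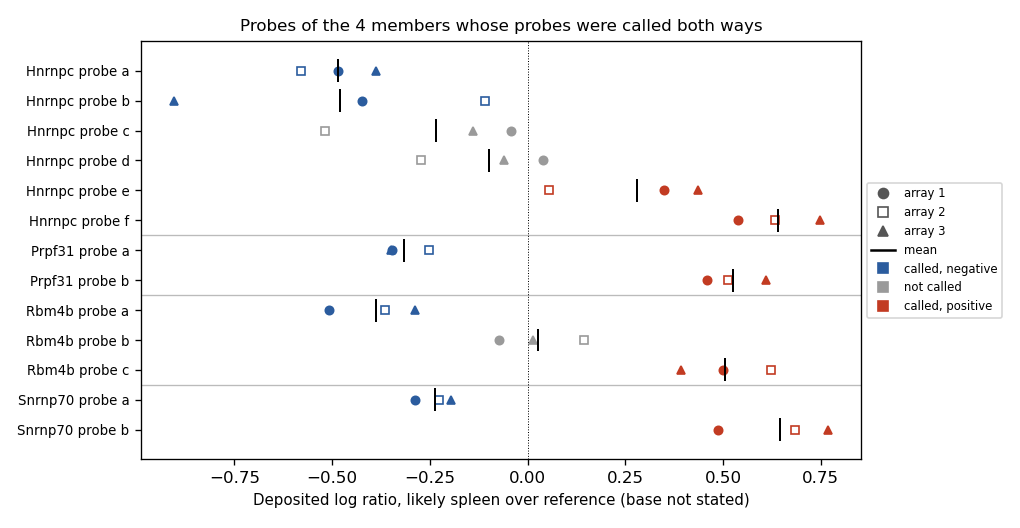
Log ratio on each array (symbols) and mean (black line) of each measured probe of Hnrnpc, Prpf31, Rbm4b and Snrnp70, lettered by rising mean; red and blue probes passed the probe test. In each gene at least 1 probe lies below 0 and 1 above 0 on all 3 arrays.

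The other 29 listed genes had no probe measured on all arrays, and 11 of them held 0 throughout, which is not to be read as no expression: Ddx46, Hnrnpa2b1, Hnrnpf, Lsm4, Prpf3, Rbm17, Rbm22, Rbm24, Rbm3os, which is an antisense transcript caught by the symbol, Snrnp35 and Snrpe. A fit with probes measured on at least 2 arrays covered 14 of the 29. The largest of these ratios was that of Ddx5, the p68 helicase, with 1.01 on array 1 and 1.19 on array 3 (limma adjusted p = 0.000118), while a second Ddx5 probe gave 0.39 on array 3 alone. Rbm3, a protein induced by mild cold, had -0.81 and -0.73 on arrays 1 and 3 (limma adjusted p = 0.000397), and another probe had -1.39 on array 2. Dhx36, a helicase of G-quadruplexes, had -0.84 and -0.66 (limma adjusted p = 0.000642). Hnrnpa0 had -0.37 and -1.07, far apart. Srsf1 and Srsf6, given above, were called positive in that fit (limma adjusted p = 0.00197 and 0.00185), as were Rbm43 (0.55) and Rbm14 (0.40), and Prpf38a (-0.42), Ddx21 (-0.34) and Ddx4 (-0.27) were called negative. Sf3b1, the largest SF3b subunit, was near 0 on both arrays that measured it (-0.041 and 0.042) and was not called, like Ddx41 (-0.20) and Srsf9 (-0.11). The last 4 genes had a value on a single array and no test, Ddx17 at 0.25, Ddx39b at 0.27 and Lsm12 at -0.50 on array 2 and Hnrnpm at -0.36 on array 3.

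Other genes of RNA processing were read from lists that share no gene with the members, with the same 33.2% positive and 37.1% negative as background. Of 13 measured partners and kinases of SR proteins 8 were called positive and 1 negative, with a median of 0.45. They were led by the CLK kinases, which phosphorylate SR proteins, Clk4 with 1.51, 1.35 and 1.33 (mean 1.40, limma adjusted p = 2.71e-06) and Clk1 with 1.22, 1.28 and 0.89 (mean 1.13, limma adjusted p = 2.77e-05, or 0.062 with 0 kept). The negative gene was Luc7l (-0.29), whose call ended with 0 kept (-0.24, limma adjusted p = 0.0576) and with the running median over 5 probe numbers (-0.039, 0.480). The SMN complex loads the Sm ring onto the RNA. Of 8 measured genes of this complex and of snRNP assembly, 6 were called negative and 1 positive, with a median of -0.36. Prmt5, called negative (-0.40), had 0.0050 on array 2. Strap had -0.65, -0.95 and -0.59 (mean -0.73, limma adjusted p = 0.000227, or 0.0508 without moderation) and the export adaptor Phax -0.64, -0.56 and -0.43 (mean -0.54, limma adjusted p = 0.000338), and Gemin7 was the positive gene (0.41). With a running median over 5 probe numbers subtracted 2 genes of this list were called negative, and with an unmoderated variance 3. Over all genes 1944 and 1395 were called negative in these settings, beside 2253 in the main test.

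The remaining lists went both ways. Of 21 spliceosome scaffold and step factors 7 were called positive and 8 negative, the lowest being the U5 protein Txnl4a (-0.80) and Plrg1 (-0.65). Of 16 other RNA-binding splicing regulators 6 were positive and 6 negative, with the stress granule protein Tia1 at 1.19 and Rbfox2, a regulator of muscle, epithelial and neural exons, at -1.57 (-1.54, -1.69 and -1.47). Among 8 cleavage and polyadenylation genes Pcf11 (1.12), Rbbp6 (0.68) and Cpsf6 (0.68) were positive and Nudt21 (-0.43) negative. Among 7 genes of the exon junction complex and mRNA export Chtop (0.53) and Ncbp3 (0.21) were positive and Sap18 (-0.70) and Rnps1 (-0.54) negative. The call of Ncbp3 ended without array 2 (0.20, limma adjusted p = 0.0589) and without array 3 (0.18, 0.178). The call of Rnps1 ended with 0 kept (limma adjusted p = 0.0623), without moderation (0.0897) and with the running median over 5 probe numbers, which moved it to -0.064 (0.667), and that of Ncbp3 ended in the same settings. Of 4 other RNA helicases the interferon-induced RNA sensor Ifih1 had 1.89, 1.82 and 1.74, a mean of 1.82 ± 0.075 (SD, n = 3; limma adjusted p = 6.55e-07), a higher ratio than any Ddx or Dhx gene measured here, while the translation factor Eif4a1 (-0.36) and Dqx1 (-0.33) were negative. The calls of Eif4a1 and Dqx1 ended without moderation (limma adjusted p = 0.0585 and 0.0736), and Dqx1 stood at 0.21 with the running median over 5 probe numbers subtracted. Cpsf6, Nudt21, Chtop, Ncbp3, Dqx1, Luc7l, Gemin7 and Prmt5 were named after their values were seen.

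**Figure D5:**
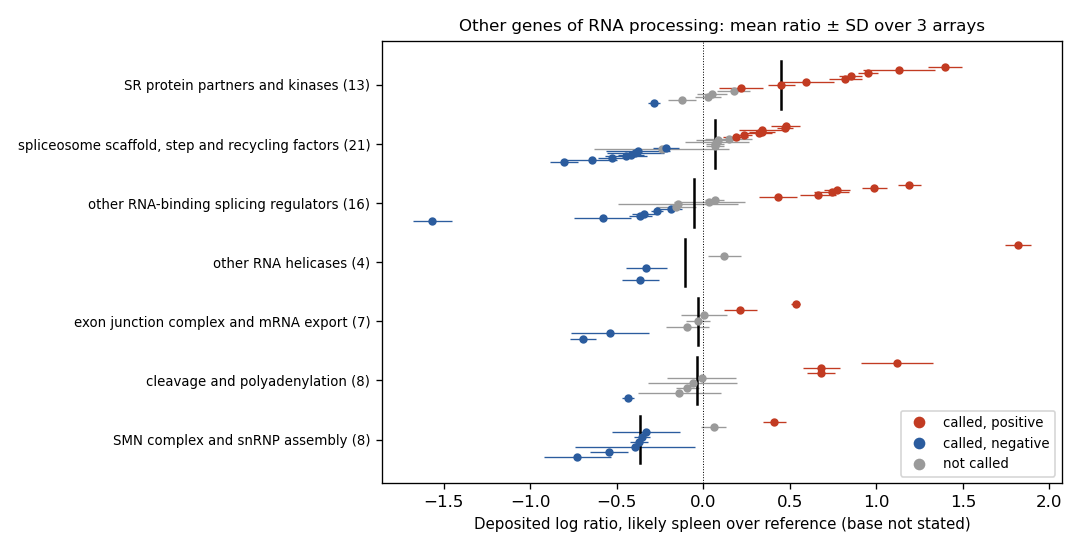
Mean log ratio (points, with SD over 3 arrays as bars) of the measured genes of 7 related lists, with the number measured in parentheses and the median as a black line; red and blue points passed the gene test. The list of SR protein partners and kinases has its median at 0.45 and that of the SMN complex and snRNP assembly at -0.36, and the others have medians between -0.10 and 0.068.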

How the data were processed

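The authors deposited 1 table with a score per probe and array, a signed log ratio of the red and green channels for which the sources used here state no base, numerator, background correction or normalization. Per the labels, cRNA was made by 1 round of amplification. The design had assumed log2 values, and they were tested as deposited. Of 16273 probes 24.2% to 26.8% held exactly 0 on an array, which was read as no measurement, and 11086 were measured on all 3 arrays. Intensities were not analysed here, so depth over background is unknown, and the number of arrays limits the precision. Genes came from the platform annotation (12336 probes with 1 symbol).

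Probes of a gene were averaged, and the test against 0 for each of 6077 genes used limma 3.58.1 under R 4.3.3 (two-sided, moderated variance, Benjamini-Hochberg adjusted p under 0.05 over all genes), after a check on simulated data. Probes were tested likewise. Roles were assigned by hand. Members, roles and lists were chosen with earlier results of these data known. Up to 4 called members of a family with the largest ratio, members with opposite probes and up to 2 genes of each related list are named with values, and other members more briefly. Protein sequences were not used here. Figures used matplotlib 3.10.9 under Python 3.11.15. The alternatives tried are given at the end.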

Additional observations from a re-analysis of the deposited data

How the results depend on the processing

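Each member was tested again with 0 kept as a value, with probes on at least 2 arrays, with the arrays centred, scaled or quantile normalized, with a running median over 5 or 20 probe numbers subtracted, with an unmoderated or robust variance, against a 1.5-fold change read in base 2, at an adjusted p under 0.01, with the median or the least variable probe of a gene, and without each array. Of the 50 called members, 6 kept their call and direction in all of these and 19 more in all but the 1.5-fold test. The 26 positive calls became 15 with 0 kept, 13 without moderation and 3 against 1.5-fold. The 24 negative calls became 17 with 0 kept, 16 without moderation and 3 against 1.5-fold. Against 1.5-fold 0 SR protein genes and 2 Sm ring genes passed. Over all genes the counts were 626 positive and 582 negative against 1.5-fold. They were 1375 positive and 1395 negative without moderation and 1601 and 1662 with 0 kept, beside 2017 and 2253. Calls of members without each array ranged from 21 to 25 positive and from 16 to 22 negative. Over all genes they ranged from 1715 to 1945 positive and from 1945 to 2206 negative. Without moderation 21 of the 50 calls ended (Ddx3x, Ddx23, Ddx24, Ddx54, Ddx56, Dhx9, Dhx16, Dhx30, Hnrnpdl, Hnrnpr, Lsm5, Lsm7, Prpf4b, Rbm6, Rbm25, Sf3a1, Sf3b2, Snrnp48, Snrnp70, Snrpa and U2af1), without array 1 14, and without array 2 or array 3 7 each. Directions reversed for Dhx9 (0.094), Snrpa (0.0092), Snrpn (0.29) and Dqx1 (0.21) with the running median over 5 and for Ddx18 (-0.17) over 20, and by the least variable probe for Ddx39a (-0.039), Hnrnpab (0.10), Lsm7 (0.059), Prpf31 (-0.32), Rbm42 (0.17) and Snrnp70 (-0.24). Why was not tested. The running median includes the probe itself and can remove a real ratio. No paired analysis was possible because the 3 arrays form 1 group.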
